A study of Mus musculus with 8 samples.

Results

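Hair keratins and keratin-associated proteins (Krtap) are the structural proteins of the hair shaft, and 21 of the 18770 genes in the deposited table belonged to them. Members were taken by gene symbol, as the type I hair keratins Krt31 to Krt36 with their letter suffixes, the type II hair keratins Krt81 to Krt86 and every numbered Krtap gene. The table held 7 type I hair keratins, 5 type II hair keratins and 9 Krtap genes. Of the Krtap genes in the GENCODE M21 annotation, it listed 5 of 20 in the high-sulfur families, 2 of 17 in the ultrahigh-sulfur families, 2 of 16 in the glycine-tyrosine families and 0 of 5 in other families. Every gene in the table had reads in at least 3 libraries, and Krtap genes outside the table were not analysed here.

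Type I and type II keratins pair into the intermediate filaments of hair cortex and cuticle cells, which harden as they move up from the matrix of a growing follicle. Krtap proteins form the matrix between these filaments, where the cysteine-rich high-sulfur and ultrahigh-sulfur families cross-link through disulfide bonds and the glycine-tyrosine families are small proteins rich in those residues. Krt35 belongs to the keratins that appear low in the follicle, near the matrix, while most other hair keratins and then the Krtap genes follow higher in the cortex and cuticle of the anagen follicle.

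Messenger RNA was measured in back skin of wildtype male C57BL/6J mice aged 7 to 8 weeks, at day 4 (D4) after depilation, a procedure that starts a new hair cycle. The interfollicular epidermis had been taken off, leaving dermis with hair follicles. The AP group (n = 4) received alpinetin, a plant flavonoid, on the skin once a day from the day after depilation, in 20 µl of a 3 mg/ml solution in 65% ethanol, while the VC group (n = 4) received the 65% ethanol vehicle. Whether the hair shaft genes differed between AP and VC at D4 is the comparison made here. The columns AP.1 to AP.4 and VC.1 to VC.4 name the group of each library and were not tied to individual sample titles.

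Values are normalized counts, which are reads per gene divided by 1 size factor per library. The VC libraries held 6454563 to 7264151 reads in genes and the AP libraries 8507783 to 11190113. Mitochondrially encoded genes took 48.4% ± 5.81 of the reads in VC and 8.66% ± 2.63 in AP (SD, n = 4 each), so that 3080758 to 3762217 other reads remained in VC libraries and 7561598 to 10594787 in AP libraries. A count of 0 allows up to 3 reads, which is 4.10 to 5.63 normalized counts in VC and 1.49 to 2.18 in AP. A member at 0 in a VC library was therefore below a higher limit than a member at 0 in an AP library. These limits hold for 1 library each and cover counting error only. For a member at 0 in all 4 VC libraries, the limit on the VC mean is lower.

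The library AP.2 stood apart from the other 7 for these genes. It was the highest library for 17 of the 21 members, where it was the highest for 12.4% of all genes listed. AP.3 was highest for Krt36 and Krtap3-2, VC.1 for Krt35 and VC.3 for Krt84. Of the 8-library sum of a gene, AP.2 held a median of 65.8% for the 20 members other than Krt35, with a range from 10.7% to 90.4%, and a median of 11.9% over all genes listed. For each tested member the log2 fold change is for this reason also given without AP.2. Since AP.2 was picked by these same values, leaving it out was bound to lower the fold changes of members highest there. Ranges with each library left out are given in the closing section.

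Krt35 was the most abundant member and Krt86 followed it at a much lower level. Summed over the 20 members other than Krt35, the VC libraries had 153, 106, 128 and 30.0 normalized counts, and AP.1 to AP.4 had 98.6, 1357, 366 and 154. AP.2 and AP.3 lay above all VC libraries, AP.4 lay just above VC.1, the highest VC library, and AP.1 lay within the VC range. AP.2 was above every VC library in 18 of the 21 members, AP.3 in 13, AP.4 in 5 and AP.1 in 2, where the shares of all genes listed were 25.6%, 26.9%, 25% and 20.6%. Every AP library was above every VC library in 2 of 21 members, Krt33a and Krtap3-2, against 9.72% of all genes listed. In bulk tissue, more cells of a type and more RNA per cell cannot be told apart.

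**Figure D1:**
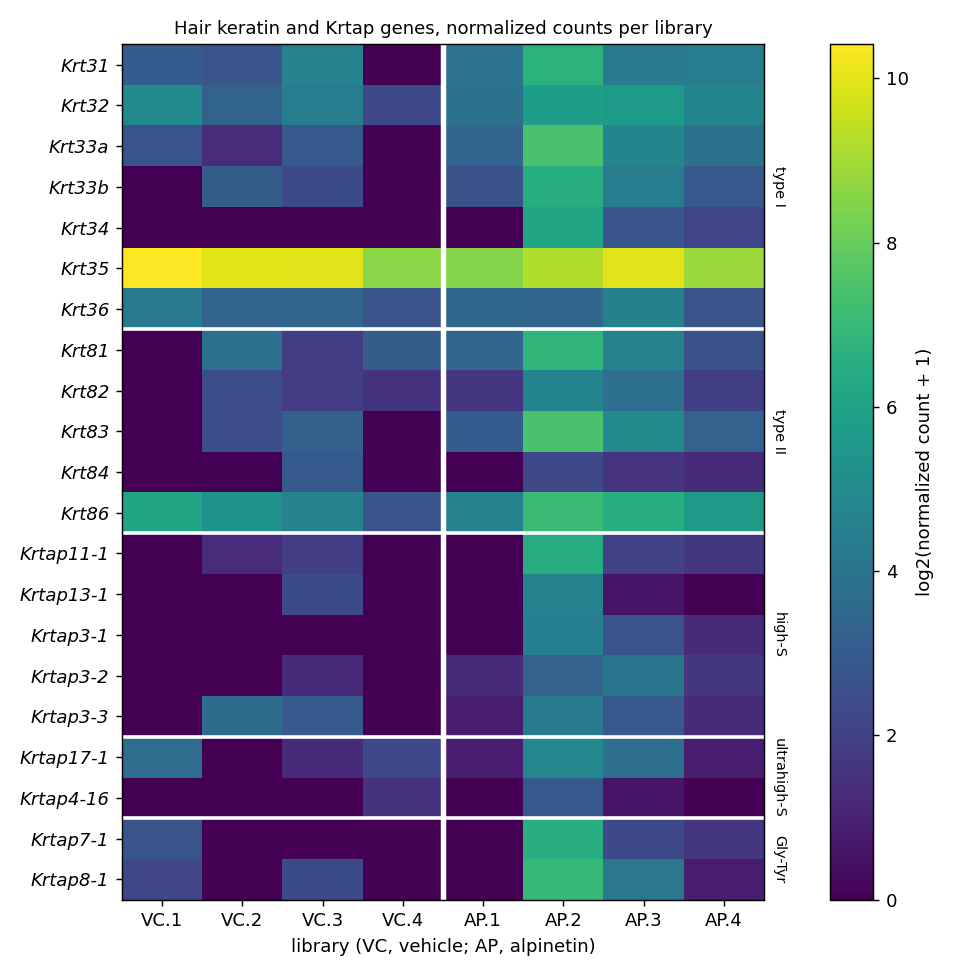
Each row is 1 of the 21 members, grouped by class, and each column 1 of the 8 libraries, with colour giving log2(normalized count + 1). Krt35 is bright in all 8 libraries, and AP.2 is the brightest column for 17 of the 21 members.

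Genes that reached 3 normalized counts in 4 or more libraries were compared between AP and VC with limma, a linear model with moderated errors, on log2(normalized count + 1), and p-values were adjusted over the 15964 genes tested (Benjamini-Hochberg, 2-sided). Of the 21 members, 12 were tested and 9 were too low. Each of the 12 reached the minimum in at least 2 VC libraries, and 5 reached it in more AP than VC libraries. Those 5 were Krt31, Krt33a, Krt33b, Krt81 and Krt83, which also had the largest log2 fold changes. Their place in the test thus rested in part on their AP values. At an adjusted p under 0.05 limma called 0 of the 12 members higher and 0 lower in AP, while it called 6.33% of all genes tested higher and 4.0% lower. At an unadjusted p under 0.05, 4 members were higher (Krt31, Krt33a, Krt33b and Krt83), against 17% of all genes tested. The count models called more on the reads recovered from the table. The edgeR quasi-likelihood test called 1 of 12 members higher, Krt33a, against 6.28% of genes, and DESeq2 called 4 members higher (Krt33a, Krt33b, Krt81 and Krt83), against 9.46% of the 17622 genes with an adjusted p. DESeq2 gave no adjusted p for Krt31, Krtap4-16, Krtap7-1, Krtap11-1 and Krtap13-1.

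Of the 12 tested members, 11 had a log2 fold change above 0, beside 53.5% of all genes tested, and 1, Krt35, below 0. The median log2 fold change of the 12 members was 1.56, beside 0.06 over all genes tested, and 0.96 without AP.2, beside 0.05. Since 5 of the 12 passed the filter in part through AP libraries, these counts and medians describe the tested members only. The members share follicle layers and, for many, sequence, so they are not independent measurements. Scaling by total counts only moved the median of all genes from 0.06 to 0.90 and that of the 11 members then tested to 2.12, which lies 1.22 above all genes instead of 1.5. With that scaling limma called 7 members higher, against 53.7% of all genes.

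Among the type I hair keratins, Krt35 was the only one tested with a log2 fold change below 0. From replicate 1 to 4, its normalized counts were 1364, 1023, 961 and 392 in the VC libraries and 369, 600.1, 974 and 458 in the AP libraries, an order kept for the genes below. AP.1 was below all VC libraries and the other 3 AP libraries lay inside the VC range. The means were 935 ± 403 in VC and 600.5 ± 267 in AP (SD, n = 4 each), with a log2 fold change of -0.60 (SE 0.38, limma adjusted p = 0.303). This difference did not exceed the spread between libraries, and without AP.2 it was -0.63 (adjusted p = 0.383). Leaving out each library in turn gave -0.97 to -0.38. With total counts only the sign turned, to 0.27, which is 0.63 below the median of all genes under that scaling, where the deposited scaling put Krt35 0.66 below it. The gene lies on chr11:100092193-100096241 on the minus strand (mm10).

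Krt33a, a keratin of the cortex, had 5.46, 1.48, 6.83 and 0 normalized counts in VC and 9.43, 169, 25.4 and 14.3 in AP. All 4 AP libraries were above all 4 VC libraries, and AP.2 held 313 reads where the other AP libraries held 13, 51 and 20. The log2 fold change was 3.12 (SE 0.94, limma adjusted p = 0.0547), and an exact permutation test gave p = 0.0286, the smallest that 4 against 4 libraries allow. It was 2.27 without AP.2 (adjusted p = 0.149). The adjusted p was 0.0412 with edgeR, 0.00182 with DESeq2, 0.203 with limma-voom and 0.0393 with limma without AP.1, so the call for this gene was not the same in all tests.

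Its neighbour Krt33b had 0, 7.39, 4.10 and 0 normalized counts in VC and 5.08, 90.0, 20.4 and 6.44 in AP. AP.2 and AP.3 were above the VC libraries, and AP.1 and AP.4 were below VC.2. The log2 fold change was 2.75 (SE 1.01, limma adjusted p = 0.0971), and 1.95 without AP.2 (adjusted p = 0.269). Krt31, another cortex keratin, had 7.28, 5.91, 23.2 and 0 normalized counts in VC and 14.5, 106, 18.4 and 20 in AP. Apart from AP.2, its AP libraries lay below VC.3. The log2 fold change was 2.23 (SE 0.93, limma adjusted p = 0.133), 1.60 without AP.2 (adjusted p = 0.330) and 1.36 without VC.4.

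Krt34 had no reads in any VC library. In AP.1 to AP.4 it had 0, 129, 12 and 5 reads, or 0, 69.6, 5.98 and 3.58 normalized counts. AP.4 lay below the 4.10 to 5.63 normalized counts that 0 reads allow in a single VC library, AP.3 just above them and AP.2 far above. With every VC library at 0, the limit on the VC mean is lower than that. Krt34 was too low to be tested. Krt32, a keratin of the hair cuticle, had 30.9, 8.87, 20.5 and 3.75 normalized counts in VC and 13.8, 55.5, 50.3 and 25 in AP, with the groups overlapping (log2 fold change 1.28, SE 0.66, limma adjusted p = 0.211; 1.01 without AP.2 and 0.78 without VC.4). Krt36 lay between 5.63 and 18.2 in VC and between 5.72 and 22.9 in AP, with a log2 fold change of 0.13 (SE 0.57, limma adjusted p = 0.896; 0.18 without AP.2) that turned to -0.21 without AP.3 and -0.10 without VC.4.

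Per kilobase of exon, the levels of the type I keratins ran from Krt35 at 390.2 ± 168 normalized counts per kb in VC (SD, n = 4) to Krt34 at 0, with Krt32 second at 9.30 ± 7.07. Krt32, Krt36 at 6.32 ± 3.21 and Krt31 at 5.76 ± 6.28 did not differ beyond their spread. Krt35 made up 94.0%, 95.6%, 91.3% and 96.7% of the summed type I level per kb in the VC libraries and 83.2%, 46.6%, 83.0% and 81.3% in the AP libraries. Its share was below the VC range in all 4 AP libraries, and in AP.2 the other type I keratins together exceeded Krt35.

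Among the type II hair keratins, Krt86 was the most abundant and is a cortex keratin. It had 69.1, 38.4, 23.2 and 5.63 normalized counts in VC and 23.9, 135, 87.7 and 50.8 in AP. AP.2 and AP.3 were above VC.1, and AP.1 and AP.4 lay inside the VC range (log2 fold change 1.28, SE 0.71, limma adjusted p = 0.242; 0.91 without AP.2 and 0.63 to 1.77 over all libraries left out singly). Krt83 had 0, 4.43, 8.19 and 0 normalized counts in VC and 7.25, 169, 30.9 and 8.58 in AP. AP.1 was the only AP library within the VC range for this gene. Its log2 fold change of 3.27 was the largest of the 12 tested members (SE 1.07, limma adjusted p = 0.0685; 2.36 and 0.189 without AP.2), and the adjusted p was 0.0547 with edgeR, 0.0399 with DESeq2 and 0.234 with limma-voom.

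Krt81 had 0, 13.3, 2.73 and 7.5 normalized counts in VC and 9.43, 112, 24.4 and 5.01 in AP. Only AP.2 and AP.3 were above the VC libraries (log2 fold change 2.16, SE 1.01, limma adjusted p = 0.176; 1.34 without AP.2). DESeq2 gave an adjusted p of 0.0481 for Krt81. Krt82, a cuticle keratin, had 0 to 4.43 normalized counts in VC and 2.18 to 25.3 in AP, and Krt84 had 6.83 in VC.3, 0 in the other VC libraries and at most 3.77 in AP. Both were too low to be tested. The 5 type II genes summed to 69.1, 60.6, 43.7 and 15 normalized counts in VC and 42.8, 445, 158 and 68.7 in AP, so that AP.1 and AP.4 stayed within the VC range.

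Many of these keratins share sequence, and their values are uncertain to that extent. Of the 50-base words in its exons, 43.3% of Krt86, 37.7% of Krt81 and 22.1% of Krt83 also occur in other genes, each with the other 2 among them. For the type I genes the share was 33.1% for Krt34, 28.1% for Krt31, 24.2% for Krt33b and 17.8% for Krt33a, and 2.70% for Krt35. How reads that match several genes were counted is not given in the sources used here. Krt32, with no shared words, overlaps Gm11571 on the other strand, and the counting is not stated to use strand.

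Krtap genes were near the limit of detection in every library except AP.2 and AP.3. Summed over the 9 genes, VC.1 to VC.4 had 12, 9, 15 and 3 reads and AP.1 to AP.4 had 4, 765, 129 and 15, which is 21.8, 13.3, 20.5 and 5.63 normalized counts in VC and 2.90, 412, 64.3 and 10.7 in AP. AP.2 and AP.3 were above all VC libraries, AP.4 was within the VC range and AP.1 was below it. For 8 of the 9 genes AP.2 was the highest library.

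Krtap8-1, a glycine-tyrosine gene, had 3.64, 0, 4.10 and 0 normalized counts in VC and 0, 125, 16.4 and 0.715 in AP. AP.2 and AP.3 were high, and AP.1 and AP.4 were no higher than VC. The log2 fold change was 1.83 (SE 1.40, limma adjusted p = 0.403), and 0.49 without AP.2 (adjusted p = 0.841). The count models gave larger values, 4.08 with edgeR (adjusted p = 0.121) and 4.19 with DESeq2 (adjusted p = 0.188). The other glycine-tyrosine gene, Krtap7-1, had 3 reads in VC.1 and none in the other VC libraries, and 0, 173, 8 and 3 reads in AP. It was not tested, and 88.9% of its 8-library sum lay in AP.2.

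Of the high-sulfur genes, Krtap11-1 had 0, 1, 2 and 0 reads in VC and 0, 164, 6 and 3 in AP. Krtap3-1 had no read in any VC library and 0, 40, 11 and 2 reads in AP, where AP.1 was also at 0. Krtap3-2 was the Krtap gene with every AP library above every VC library, at 0, 0, 1 and 0 reads in VC and 2, 16, 31 and 3 in AP. In AP.1 and AP.4 this was 1.45 and 2.15 normalized counts, below the 4.10 to 5.63 that 0 reads allow in a single VC library. For these 2 libraries the separation from any single VC library is within counting error. These low counts were below the filter, and no fold change is given for them. Krtap3-3, the high-sulfur gene that passed the filter, had 0, 11.8, 6.83 and 0 normalized counts in VC and 0.725, 17.8, 6.48 and 1.43 in AP. The groups overlapped, and the log2 fold change of 0.64 (SE 1.10, limma adjusted p = 0.729) was -0.0054 without AP.2. Of its 50-base words, 41.3% also occur in Krtap3-1 or Krtap3-2. Krtap13-1 had 3 reads in VC.3 and 44 in AP.2, with at most 1 in any other library.

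The ultrahigh-sulfur genes were low as well. Krtap17-1 had 12.7, 0, 1.37 and 3.75 normalized counts in VC and 0.725, 27.5, 12.5 and 0.715 in AP, with overlapping groups (log2 fold change 0.72, SE 1.12, limma adjusted p = 0.699; -0.046 without AP.2). Krtap4-16 had 1 read in VC.4, 12 in AP.2 and 1 in AP.3. Neither gene separated the groups.

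Among the reads of the 20 members other than Krt35, the Krtap share was 30.4% in AP.2 (95% Wilson interval 28.6 to 32.2), 17.6% in AP.3 (15 to 20.5), 6.94% in AP.4 (4.25 to 11.1) and 2.94% in AP.1 (1.15 to 7.32). In VC it was 14.3%, 12.5%, 16% and 18.8%, with intervals that together ran from 6.59% to 43.0%. These intervals cover counting error only, replicates differed by more than that, and the shares were not tested between groups. Within AP the shares ran AP.2, AP.3, AP.4, AP.1 from high to low, as did the summed level of the 20 members, while within VC the library with the highest share, VC.4, had the lowest sum. Per kb, Krtap8-1 was at 218 and Krtap7-1 at 150 normalized counts per kb in AP.2, beside Krt35 at 250 per kb in the same library, while in AP.3 they were at 28.6 and 6.42 beside 407 for Krt35.

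Other genes were taken from a list of 20 for the hair shaft, some of them also active in other layers. Of these, 19 were in the table and 16 were tested. Limma called 3 higher in AP (18.8%, beside 6.33% of all genes tested) and 0 lower. With a library left out it called 2 to 4 higher, and the median log2 fold change of the list was 1.05 with all libraries. Tchh, the gene of trichohyalin in the inner root sheath and medulla, had 366, 265, 247 and 99.4 normalized counts in VC and 709, 4478, 4193 and 1223 in AP. All AP libraries were above all VC libraries (log2 fold change 3.18, SE 0.57, limma adjusted p = 0.0113; 2.79 and 0.0304 without AP.2). AP.2 and AP.3 were again the high libraries and AP.1 the lowest AP library, as for the 20 members. Tgm3, a transglutaminase that cross-links hair and epidermal proteins, rose by 2.75 (SE 0.45, adjusted p = 0.00896) and the lipase gene Lipk by 3.18 (SE 0.68, adjusted p = 0.0195). For both AP.4 was the highest library, as for the suprabasal epidermis markers summed below. The calls of Tchh and Tgm3 stood in all 20 alternative fits, and that of Lipk was lost with limma-voom and without AP.3 or AP.4. Lrrc15 and Mt4, the most abundant of this list after Tchh, were at -0.98 (SE 0.56, adjusted p = 0.254) and -0.78 (SE 0.44, adjusted p = 0.255), with overlapping groups. Of the 16 tested, 12 were above 0 and 4 below. Prr9, with AP.2 and AP.3 its highest libraries, was at 1.84 (SE 0.57, limma adjusted p = 0.0591, edgeR 0.0310, DESeq2 0.00157). S100a3 was at -0.70 (SE 0.66, limma adjusted p = 0.506).

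Of 22 tested genes that regulate the hair matrix and shaft, 1 (4.55%, beside 6.33% of all genes tested) was called higher in AP, Hr, a corepressor gene needed for hair cycling, and 0 lower, with a median log2 fold change of -0.16. Hr had 1005 ± 258 normalized counts in VC and 2133 ± 696 in AP (log2 fold change 1.07, SE 0.26, limma adjusted p = 0.0287). This call was lost without the trend and without VC.1, VC.4, AP.3 or AP.4. The transcription factor genes Gata3 and Dlx3, next in abundance, were at -0.16 (SE 0.36, adjusted p = 0.789) and -0.33 (SE 0.51, adjusted p = 0.699). Hoxc13, a transcription factor known to act on hair keratin genes, was at -0.28 (SE 0.50, adjusted p = 0.740), and Foxn1, another regulator of hair differentiation, at 1.59 (SE 0.65, adjusted p = 0.126). Bmp4 went the other way, at -0.89 (SE 0.27, limma adjusted p = 0.0536), and at -0.03 with total counts only. It was called lower with edgeR (adjusted p = 0.0338), DESeq2 (0.0080) and limma-voom (0.0434).

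Keratins of the inner root sheath, the layers that surround the growing shaft, were far more abundant than the Krtap genes. The 7 genes summed to 5632, 4541, 5870 and 1455 normalized counts in VC and 3119, 12866, 14389 and 4837 in AP, with Krt71, Krt25 and Krt28 the most abundant. AP.2 and AP.3 were above all VC libraries and AP.1 and AP.4 within the VC range, as for the summed type II hair keratins. Limma called 1 of 7 higher (14.3%, beside 6.33% of all genes tested), Krt72, with a list median of 1.48 (0.86 without AP.2). Krt72 had 0, 5.91, 2.73 and 0 normalized counts in VC and 13.1, 139, 32.4 and 29.3 in AP (log2 fold change 4.06, SE 0.86, limma adjusted p = 0.0188). Without AP.2 its log2 fold change was 3.43 (adjusted p = 0.0627), and the call was also lost without AP.3 or AP.4 and with limma-voom. Krt71 was at 2.01 (SE 0.61, adjusted p = 0.0575; 0.0406 with edgeR), Krt25 at 0.99 (SE 0.53, adjusted p = 0.231) and Krt28 at -0.81 (SE 0.40, adjusted p = 0.195), each with overlapping groups.

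**Figure D2:**
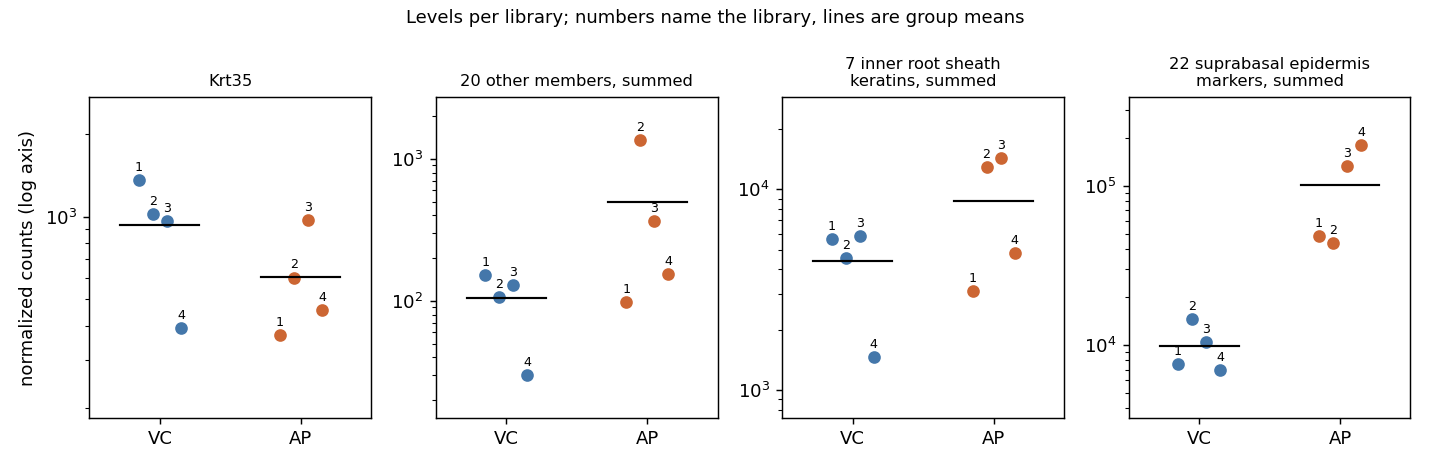
Normalized counts per library on log axes for Krt35, for the 20 other members summed, for 7 inner root sheath keratins summed and for 22 suprabasal epidermis markers summed, with 1 point per library and a line at each group mean. In the panel of 20 members AP.2 lies at 1357 and AP.3 at 366, above the 30.0 to 153 of VC, while for the suprabasal markers AP.3 and AP.4 are the high libraries.

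Markers of other cell types moved between the groups and libraries as well, and their part in the values of the hair shaft genes was not tested. The shares called higher were 68.2% of tested suprabasal epidermis markers, 62.5% of epidermal keratins and 33.3% of companion layer keratins, beside 6.33% of all genes tested. The 22 suprabasal epidermis markers summed to 7558, 14450, 10438 and 6951 normalized counts in VC and 48304, 43761, 132765 and 180466 in AP, led by Krt10, Krt1 and Krt77, and 15 of 22 were called higher and 0 lower (median log2 fold change 2.83; 9 to 17 called higher with a library left out). Hrnr (4.41), Klk5 (4.16), Krt77 (3.95), Krt10 (3.85) and Flg2 (3.47) had the largest log2 fold changes among those called, and of 20 alternative fits the call was lost in 0 for Krt77 and Krt10, 1 for Hrnr (limma-voom), 6 for Klk5 and 9 for Flg2. No marker of this list was at 0 in a whole group, although the interfollicular epidermis had been removed. AP.2 had the lowest sum of these markers in AP, but AP.1 was below it for Krt10, Krt1 and 5 other markers of the list. Of 8 epidermal keratins 5 were called higher (Krt1, Krt10, Krt77, Krt78 and Krt80, median 2.52), where the call of Krt78 was lost in 7 of the 20 alternative fits and the others in none, while the abundant basal keratins Krt14 (1.02, adjusted p = 0.212) and Krt5 (0.94, adjusted p = 0.196) were not called. Of 6 keratins listed for the companion layer, which lies between the root sheaths, 2 were called higher, Krt6b and Krt16 (list median 1.33, and 0 to 4 called with a library left out). AP.3 and then AP.4 were the highest libraries for both. Of the 20 alternative fits 4 lost the Krt6b call and 3 the Krt16 call, among them those leaving out AP.3 or AP.4. Krt75, also in this list, was at 0.20 (SE 0.35, adjusted p = 0.735) with overlapping groups, so the calls do not hold for the list as a whole. The most abundant of the 6, Krt17 (0.56), Krt79 (0.47) and Krt6a (2.10, adjusted p = 0.0556), were not called.

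The 10 skeletal muscle markers, led by Acta1, Ckm and Tnnt3, summed to 36983 to 74212 normalized counts in VC, 72549 in AP.1 and 9325, 5467 and 11882 in AP.2 to AP.4. AP.1, with the lowest sum of hair shaft genes in AP, was thus within the VC range for muscle. Limma called 0 of the 10 higher and 1 lower, Tnnc2 (adjusted p = 0.0497, but 0.133 with edgeR and 0.164 with DESeq2; median of the list -1.80). Without AP.1 all 10 were called lower, and without any other single library 0 were. Of 8 melanocyte markers 4 were called lower in AP (Mitf, Mlana, Pmel and Tyr, median -0.92). With a library left out 1 to 5 were called lower, and the median ran from -1.47 to -0.74. The Mlana call stood in all 20 alternative fits, and those of Mitf, Pmel and Tyr were lost in 8, 7 and 7 of the 8 fits with a library left out. Dct and Tyrp1, abundant markers of this list, were at -0.83 and -0.50 and not called. Among 10 sebaceous gland markers (led by Scd1, Fa2h and Plin2), 8 fibroblast markers (Col1a1, Col1a2 and Col3a1) and 8 adipocyte markers (Cfd, Fabp4 and Cidec) limma called none in either direction (medians -0.30, 0.28 and 0.36). Cd207 was called higher among 8 leukocyte markers (led by Lyz2, H2-Ab1 and Adgre1, median -0.52) and Hbb-bs among 5 red blood cell markers tested (led by Hbb-bs, Hba-a1 and Hba-a2, median 0.94, and 0.29 without VC.1). The Cd207 call was lost without the trend, with limma-voom and without AP.3 or AP.4, and the Hbb-bs call without the trend and without VC.1, AP.2 or AP.4.

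The members lie in a few clusters of the mm10 genome. The 7 type I keratins and 5 of the Krtap genes are on chromosome 11, the 5 type II keratins on chromosome 15, and Krtap7-1, Krtap8-1, Krtap11-1 and Krtap13-1 on chromosome 16. Since many were high in the same library, their promoters were read for shared letters. RefSeq promoters of GRCm38.p6, from 250 bases before to 50 after the start, were matched for 15 of the 21 members (not for Krt33a, Krt35, Krt81, Krt83, Krt86 and Krtap7-1). TATAAA, the TATA box, was found on either strand in 12 of 15 (80.0%), against 13.6% of all 32851 promoters, and in 9 of 15 it started 10 to 50 bases before the start, against 2.40%. TTTATG was found on either strand in 10 of 15 (66.7%), against 11.9% of all promoters. TTTATA is the reverse complement of TATAAA and differs from TTTATG in the last letter only, so no stretch can match both. On the coding strand TTTATG began 154 to 166 bases before the start in 6 of 15 (Krt31, Krt32, Krt33b, Krt34, Krtap3-1 and Krtap17-1). The window counted was 150 to 170 bases before the start, where 0.484% of all promoters had it. The letters and places were chosen after the promoters had been read, so the shares are descriptions, neighbouring members share ancestry, and a match describes letters and no binding site. Shown are Krt31 (chr11:100050502-100050801), Krt33b (chr11:100029819-100030118) and Krt34 (chr11:100041505-100041804), cortex keratins with both motifs in like places, and Krtap8-1 (chr16:89487903-89488202), which has TATAAA alone, all on the minus strand and written 5′ to 3′ with every match of either motif on either strand in capitals.
Krt31: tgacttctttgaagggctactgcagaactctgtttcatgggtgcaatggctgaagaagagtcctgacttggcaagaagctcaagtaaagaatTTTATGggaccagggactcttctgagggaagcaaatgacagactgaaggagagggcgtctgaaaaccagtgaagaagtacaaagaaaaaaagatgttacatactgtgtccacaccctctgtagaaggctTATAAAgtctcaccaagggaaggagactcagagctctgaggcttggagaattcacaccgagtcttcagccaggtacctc
Krt33b: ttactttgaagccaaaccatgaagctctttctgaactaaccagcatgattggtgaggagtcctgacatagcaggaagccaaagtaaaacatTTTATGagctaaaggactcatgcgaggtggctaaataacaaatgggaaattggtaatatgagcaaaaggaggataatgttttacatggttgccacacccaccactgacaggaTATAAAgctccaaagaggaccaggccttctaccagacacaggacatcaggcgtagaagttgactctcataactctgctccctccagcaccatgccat
Krt34: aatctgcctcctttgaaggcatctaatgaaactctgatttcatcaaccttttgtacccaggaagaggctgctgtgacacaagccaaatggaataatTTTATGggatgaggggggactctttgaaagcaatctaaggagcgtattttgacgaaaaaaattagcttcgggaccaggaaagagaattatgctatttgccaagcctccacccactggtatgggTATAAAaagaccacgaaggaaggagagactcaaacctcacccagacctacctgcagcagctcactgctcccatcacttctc
Krtap8-1: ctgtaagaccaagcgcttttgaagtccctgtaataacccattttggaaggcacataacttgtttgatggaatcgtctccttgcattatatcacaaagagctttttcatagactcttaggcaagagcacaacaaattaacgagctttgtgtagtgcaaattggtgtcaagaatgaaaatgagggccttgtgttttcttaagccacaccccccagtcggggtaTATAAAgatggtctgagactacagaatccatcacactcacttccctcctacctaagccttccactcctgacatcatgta
In Krt31, Krt33b and Krt34 TATAAA starts 29, 47 and 31 bases before the start and TTTATG 158, 159 and 154 bases before it. These 3 genes had 196, 167 and 129 reads in AP.2 and at most 37, 41 and 12 in any other AP library. Krt32, with TATAAA 29 and TTTATG 158 bases before its start, had 103 reads in AP.2 and 101 in AP.3. Whether the motifs bear on these counts was not tested. Krt84, with both motifs at other places, had 5 reads in VC.3 and 7 in AP.2 (6.83 and 3.77 normalized counts). These counts are too low to rank the libraries. Krtap8-1, with TATAAA 29 bases before the start and no TTTATG in this window, had 232 reads in AP.2 and at most 33 in any other library.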

How the data were processed

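Gene expression was taken from the deposited table of 8 libraries (4 VC and 4 AP). Before deposit, reads were cleaned, mapped to mm10 with STAR, counted per gene (the paper names featureCounts, and the submitters' processing notes name HTSeq) and divided by DESeq2 size factors, without stating versions. The deposited signal values are these normalized counts. The deposited log2 fold changes with their errors, the Wald statistic (a score) and the p-values are the authors' own DESeq2 comparison and were not used.

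Values were whole multiples of 1 step per library (100% within 0.01 of a read), so reads were recovered. Averaging the 8 columns gave back the deposited mean to within 1.88e-04. Replicates differed by more than sampling noise (chi-square per degree of freedom 14.8 to 74.8). The labels name no mouse per library, and the paper gives 4 mice per group for a heat map of these data, so each library was taken as 1 mouse.

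The test was limma 3.58.1 with an intensity trend in R 4.3.3 (pseudocount 1, minimum 3 in 4 libraries), after checks on simulated data. Alternatives were other scalings, pseudocounts of 0.5 and 5, other filters, limma without trend or with voom, edgeR 4.0.16, DESeq2 1.42.0 and leaving out each library. Exact permutation tests used all 70 assignments. Lengths, coordinates and 50-base words came from GENCODE M21, and tables were made with Python 3.11.15, pandas 2.3.3 and scipy 1.17.1.

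The members and lists were chosen with earlier results of these data known. Named members were those with an adjusted p under 0.05, the 3 with the highest mean in each class and the 3 with the largest change in each direction. In each list they were the 3 genes with the highest mean and up to 5 called genes with the largest change. Krt31, Krt34, Krt36, Krt82, Krt84, Krtap3-1, Krtap13-1, Hoxc13, Foxn1, Bmp4, Prr9, S100a3 and Krt75 fall outside this rule and were named after their values were seen.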

Additional observations from a re-analysis of the deposited data

Results flagged for a closer look

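In each group of 4 libraries, a member was marked where the gap between its most extreme library and the next took a share of the group's range over Dixon's 95% limit for 4 values. The limit is set for normal values, which counts near 0 are not, and 42 groups were examined. AP.2 was marked for 9 members, with 169 normalized counts of Krt33a, 169 of Krt83, 125 of Krtap8-1, 106 of Krt31, 93.3 of Krtap7-1, 88.4 of Krtap11-1, 69.6 of Krt34, 23.7 of Krtap13-1 and 6.47 of Krtap4-16, each above the other 3 AP libraries. These members are not independent, since all were read from the same library.

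In VC, VC.3 was marked for 3 members, at 6.83 normalized counts of Krt84, 4.10 of Krtap13-1 and 1.37 of Krtap3-2, VC.1 for Krtap7-1 at 5.46 and VC.4 for Krtap4-16 at 1.88. In each of these the other 3 VC libraries had no reads, a case the rule always marks, and the values rest on 5, 3, 1, 3 and 1 reads.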

How the results depend on the processing

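Of 230 alternative fits of single members, 212 kept the sign and side of the threshold, 13 became called with the same sign and 5 turned sign. Those 5 were Krt35 with total counts only (0.27), Krt36 without VC.4 (-0.10) and without AP.3 (-0.21), and Krtap3-3 (-0.0054) and Krtap17-1 (-0.046) without AP.2. None was called. With a library left out, the log2 fold change ran from -0.21 to 0.41 for Krt36, -0.0054 to 1.31 for Krtap3-3, -0.046 to 1.37 for Krtap17-1, 0.49 to 2.82 for Krtap8-1, -0.97 to -0.38 for Krt35, 1.36 to 2.90 for Krt31, 0.78 to 1.70 for Krt32, 2.27 to 3.61 for Krt33a, 1.95 to 3.32 for Krt33b, 1.34 to 2.75 for Krt81, 2.36 to 3.86 for Krt83 and 0.63 to 1.77 for Krt86. The median ran from 0.96 to 2.11 for the members, 0.78 to 1.37 for hair shaft structure, -0.24 to 0.06 for regulators, 0.86 to 1.96 for inner root sheath, -0.52 to 0.08 for sebaceous gland, 0.08 to 0.56 for fibroblast, 0.12 to 0.69 for adipocyte and 0.29 to 1.01 for red blood cell markers.

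The count of members called higher was 0 with limma, 1 with edgeR, 4 with DESeq2, 7 with total counts only, 1 of 12 at an unadjusted p under 0.01 with a fold over 1.5 (8.33%, beside 8.26% of all genes), and 0 to 1 when a library was left out (1, Krt33a, without AP.1). Over all genes, 1011 higher and 639 lower calls became 8670 and 65 with total counts only, 376 and 216 without the trend, 1667 and 1394 with DESeq2, and 209 to 1082 and 94 to 817 with a library left out. The higher share of calls was 61.3%, 49.9% with upper-quartile factors (890 and 892) and 99.3% with total counts only.

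With total counts only, 53.7% of all genes tested were called higher, with a median log2 fold change of 0.90. Higher calls were then 10 of 16 for hair shaft structure (median 1.89) and 7 of 22 for matrix and shaft regulators (median 0.71, below that of all genes). They were 5 for inner root sheath, 6 for companion layer and 8 for epidermal keratins. With DESeq2, 5 hair shaft structure genes and 3 inner root sheath keratins were called higher, and with edgeR 4 and 2. Over all genes DESeq2 called 9.46% higher and edgeR 6.28%. Each of these 2 tests called 1 regulator higher (Hr) and 1 lower (Bmp4). Limma-voom called 0 inner root sheath keratins and 1 companion layer keratin higher, and 1 regulator higher and 1 lower. Without the trend, 0 regulators and 0 companion layer keratins were higher. Upper-quartile factors, and the threshold of unadjusted p under 0.01, each added 1 regulator lower, and that threshold gave 2 inner root sheath keratins higher. With a library left out, higher calls ranged from 0 to 2 for regulators (lower 0 to 2), 0 to 3 for inner root sheath keratins (lower 0 to 1) and 0 to 4 for companion layer keratins. The causes were not tested.

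No paired analysis was made, because nothing in the labels ties a VC library to an AP library. The columns are numbered alike in both groups, but these numbers were not tied to sample titles. The titles themselves share no numbers between the groups. VC libraries held 3080758 to 3762217 nuclear-gene reads and AP libraries 7561598 to 10594787. A member at 0 in a VC library is known only to lie below 4.10 to 5.63 normalized counts in that library. Values for keratins with shared sequence depend on how the reads were assigned, and AP.2 alone holds 56.7% of the summed 20 members.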
